A study of Homo sapiens with 19 samples.

Results

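Binding of the oestrogen-related receptor ERRα was examined at 9 nuclear genes that drive mitochondrial biogenesis, namely NRF1, GABPA, YY1, TFAM, TFB1M, TFB2M, POLRMT, TWNK and POLG, out of 19856 protein-coding genes. The genes were chosen by name, and every ERRα peak whose centre lay within 20 kb of an annotated transcription start of one of them was listed, with its distance to the start and the rank of its width. The data are ChIP-seq peak lists from SKBr3 and BT-474, human breast cancer cell lines with amplified HER2 (ERBB2). Cells of both lines were serum-starved for 24 h and given 100 μM EGF, 100 μM heregulin (HRG), as the labels give the dose, for 90 min, or vehicle. EGF acts through EGFR paired with HER2, and HRG through HER2 paired with HER3. Parental, lapatinib-sensitive SKBr3 cells (pSKBr3) were untreated, whereas lapatinib-resistant SKBr3 cells (LRSKBr3), derived by long exposure to increasing doses, were kept in 2 μM lapatinib, an inhibitor of EGFR and HER2. Resistance and the presence of the drug therefore cannot be told apart. Serum starvation was 0 h for pSKBr3 and LRSKBr3, so these lists also differ in serum from the SKBr3 vehicle, EGF and HRG lists. Of the 19 libraries, 13 were ERRα ChIP libraries and 6 were inputs. Each SKBr3, pSKBr3 or LRSKBr3 list was made from 2 pooled ChIP libraries and 1 input, and each BT-474 list from 1 ChIP library against the vehicle input. The peak lists analysed here thus hold no spread between replicate libraries, and no difference between conditions was tested on them. All coordinates are of hg19 (GRCh37).

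Mitochondrial biogenesis needs the joint expression of the nuclear and the mitochondrial genome. Nuclear factors such as nuclear respiratory factor 1 (NRF1), the ETS-family factor GA-binding protein (its DNA-binding subunit is GABPA) and YY1 act on nuclear genes for mitochondrial proteins, in concert with coactivators of the PGC-1 family. The proteins made include those that package, transcribe and copy mitochondrial DNA (mtDNA). ERRα is an orphan nuclear receptor that works with the same coactivators and is known for its control of genes of oxidative metabolism. It binds DNA as a monomer or dimer at the ERR response element (ERRE).

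The lists held between 22539 peaks (pSKBr3) and 41271 peaks (BT-474 on HRG), with a median width of 1188 bp to 2012 bp. The score of a peak is the authors' own MACS value, −10 log10 of its P value, so that the cutoff of 1e-05 corresponds to the lowest score of 50. Many of the strongest peaks are tied at 3100. Since scores grow with sequencing depth, which the lists do not give, each score is also stated as a percentile of its own list. Width rank 1 is the widest peak of a list. A promoter peak here is one whose centre lies within 1 kb of any annotated start of the gene, and other peaks are called distal. Peaks of different lists that overlapped were treated as a site.

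All 9 genes had a peak within 20 kb in at least 1 list, whereas 14.6% of all protein-coding genes had none in any list. These were 87 peaks at 21 sites, of which 7 were promoter sites and 14 distal. No site was in range of more than 1 of the 9 genes. GABPA and POLG carried a promoter peak in all 8 lists, TFAM in 6, TFB2M in 5, TFB1M in 4, POLRMT in 3 and TWNK in 2, while NRF1 and YY1 had no promoter peak in any list, like 47.6% of all genes. The 36 promoter peaks had a median score percentile of 76.7 and a median width percentile of 70.8, against 43.7 and 23.6 for the 51 distal peaks. Over all genes with a promoter peak, the best percentile per gene had a median by list of 55.4 to 64.3 in score. In width it was 45.8 to 63.6. Of the 36 promoter peaks, 35 covered an annotated start. The sites called in all 8 lists numbered 4, namely the promoters of GABPA and POLG, a site upstream of TFB1M and a site downstream of TWNK. The same share over all sites was not computed. Counted by gene, 27.1% of all protein-coding genes had a peak within 20 kb in all 8 lists, and 6.64% had a promoter peak in all 8.

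**Figure D1:**
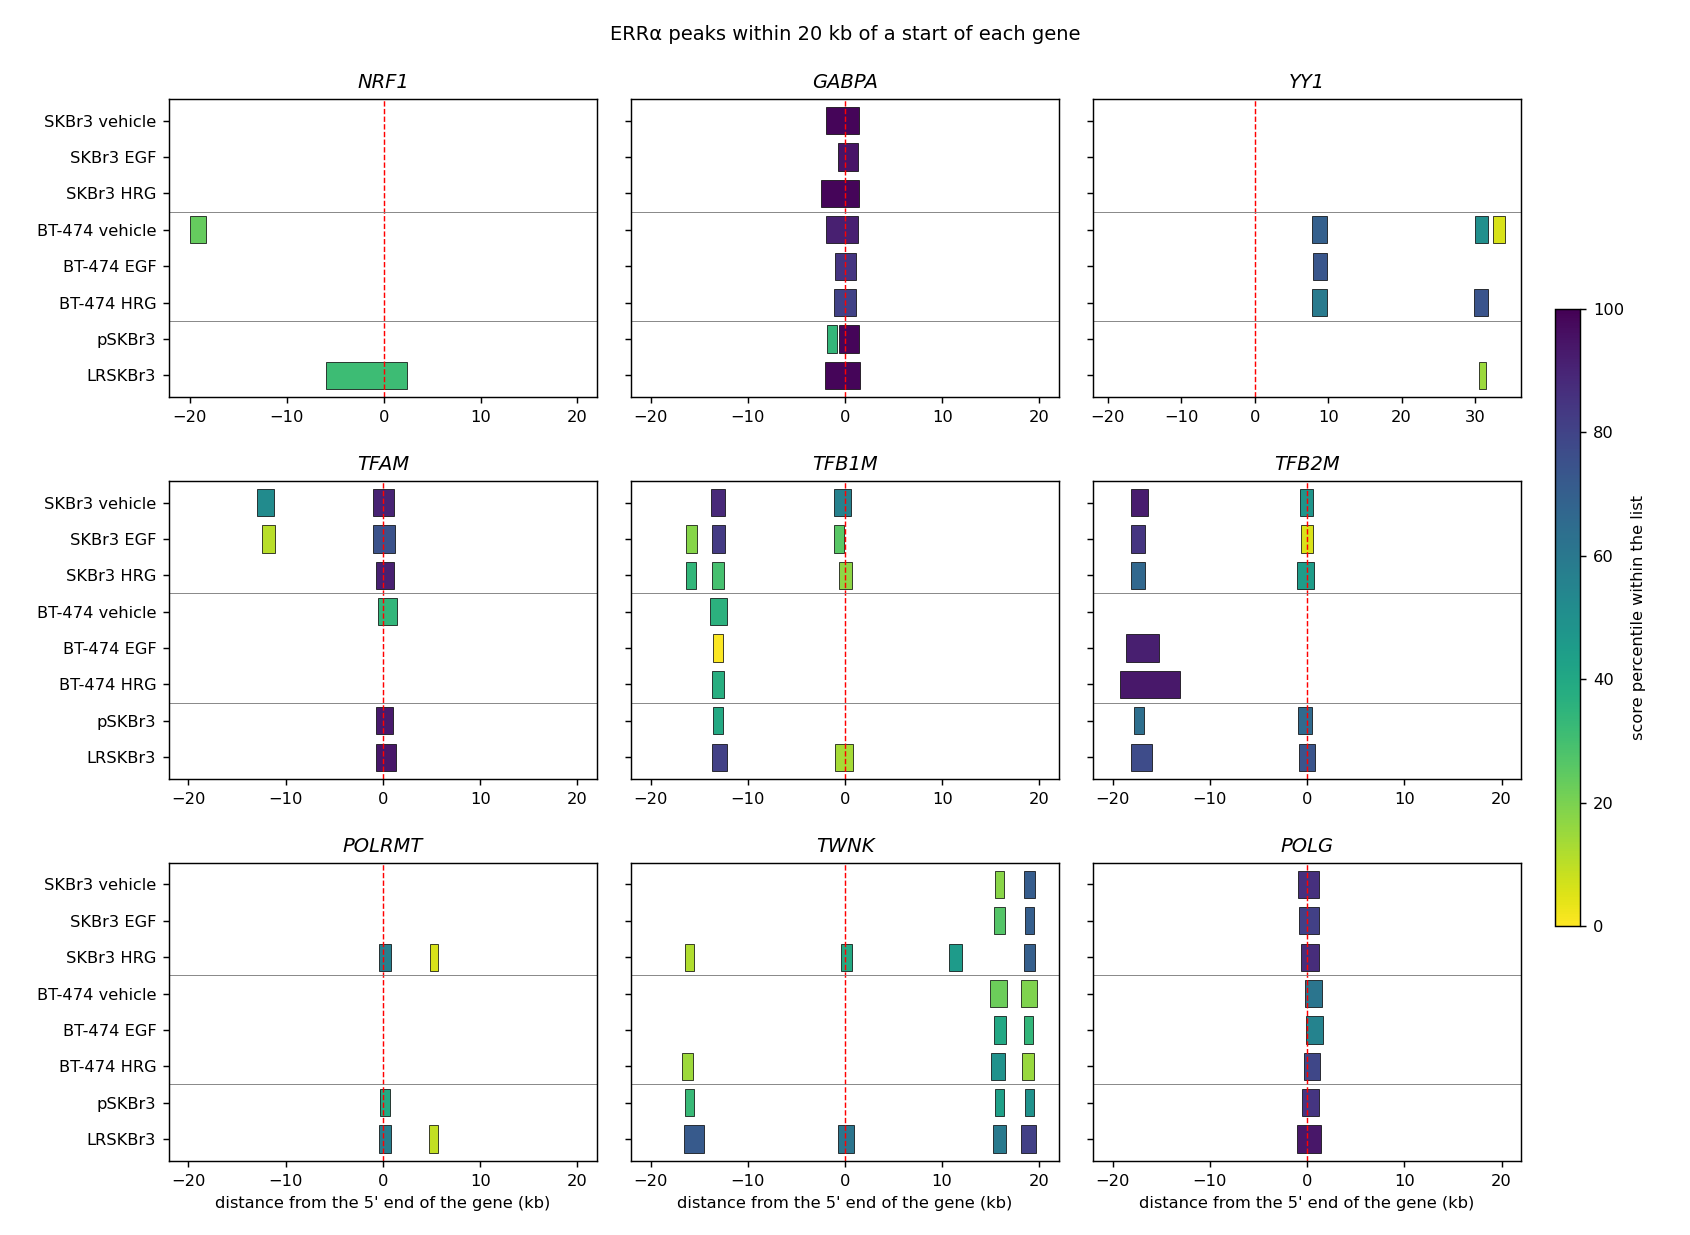
ERRα peaks around the 9 genes. The x axis of each panel is the distance in kb from the 5′ end of the gene (dashed line, negative values upstream), each row is a peak list, each bar is a peak drawn to its width, and the colour is the percentile of the peak's score within its list. GABPA and POLG have a bar at the start in all 8 rows, and the YY1 bars lie in 4 rows, away from the main start.

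To see which DNA words lie under these peaks, the genome sequence within 150 bp of each peak centre (a window of 301 bp) was searched on both strands. The words were TCAAGGTCA (ERRE), its core AAGGTCA, which every ERRE match also contains, TGACTCA or TGAGTCA (AP-1), GCGCATGC (bound by NRF1), CCGGAAGT (ETS factors, GABPA included) and AAGATGGC (YY1). None of the 7 promoter sites held the full ERRE at a peak centre, and the word occurred in 2.95% to 7.52% of all promoter peaks, depending on the list. The core AAGGTCA was present at 3 of the 7, those of GABPA, POLRMT and POLG, against 14.9% to 30.6% of all promoter peaks. Of the 14 distal sites, 1 held the ERRE (in YY1) and 8 held the core, against 7.75% to 12.3% and 26.6% to 39.8% of all distal peaks. The AP-1 word was found at 0 of the 7 promoter sites (3.67% to 9.78% of all promoter peaks) and 1 of the 14 distal sites (8.99% to 18.2% of all distal peaks). A site counts when any of its peaks held the word, so that a site called in several lists was searched in several windows, whereas the shares of all peaks are per window. The 14 distal sites lie within 20 kb of a start. All distal peaks, here and below, include peaks farther away. Such matches describe the sequence and do not show which protein bound.

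Of the nuclear transcription factors, GABPA had the strongest and most constant ERRα signal. Its gene lies on chr21:27106881-27144771 (plus strand), and its start region is shared with the oppositely oriented ATP5PF, which encodes a subunit of ATP synthase, so that the peak cannot be given to either gene alone. In SKBr3 cells the promoter peak scored 3100 on vehicle (percentile 98.6), 1882.35 on EGF (94.8) and 3100 on HRG (98.6). In BT-474 cells it scored 1323.41 on vehicle (91.3), 500.77 on EGF (84.5) and 499.26 on HRG (80.2). It scored 3100 in pSKBr3 (98.8) and in LRSKBr3 (98.7). The percentile was thus above 80 in every list and lowest in the growth factor lists of BT-474.

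The GABPA peak centre lay between 9 bp and 550 bp from the nearest start. The peak was widest on HRG in SKBr3, at 3915 bp (width rank 2108 of 37195), and 3642 bp wide in LRSKBr3 (rank 1683 of 39777) and 3388 bp on SKBr3 vehicle (rank 2215 of 32183). On EGF in SKBr3 it measured 2045 bp (rank 7167 of 32567). pSKBr3 had 2 peaks over the same stretch, the strong one of 2090 bp (rank 2445 of 22539) and a weak one of 1083 bp centred 1318 bp upstream of the start, with a score of 91.47 (33.6). The core AAGGTCA occurs at 2 positions in the site, each shown with its flanks because the gene is bound in every list. Capitals mark the core, and coordinates are followed by the strand read:
GABPA upstream, chr21:27105472-27105500, plus: aatgacctcacAAGGTCAtgtgccactta
GABPA start, chr21:27106858-27106886, minus: tggggcaacccAAGGTCAggcgcgcggga
The upstream core lay within 150 bp of a peak centre only for the weak pSKBr3 peak, and the core at the start only for the EGF and HRG peaks of BT-474. An ETS word and a YY1 word also fell within 150 bp of a peak centre at this site, words found in 1.75% to 6.84% and 2.11% to 4.35% of all promoter peaks.

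NRF1, the gene of nuclear respiratory factor 1 (chr7:129251561-129396922, plus strand), had 1 peak in each of 2 lists and none in the other 6. In BT-474 on vehicle, an intergenic peak at chr7:129231565-129233279 was centred 19139 bp upstream of the start with a score of 82.68 (percentile 23.7). In LRSKBr3, a peak at chr7:129245603-129253997 extended over the start, although its centre lay 1761 bp upstream. This peak was 8395 bp wide, rank 141 of 39777, yet its score of 95.25 stood at percentile 31.3. Its width percentile of 99.6 was the highest of the 87 peaks. No ERRα peak lay in range of NRF1 in pSKBr3 or in any of the 3 SKBr3 lists.

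YY1 (chr14:100704635-100749125, plus strand), a zinc-finger factor that can activate or repress, was in range mostly in BT-474. An intronic site centred 8804 bp to 8819 bp into the gene was called in all 3 BT-474 lists, with a score of 342.3 on vehicle (percentile 69.7), 268.08 on EGF (73.2) and 190.51 on HRG (58.8). A further intronic site, 30821 bp to 31035 bp into the gene, was called on BT-474 vehicle with 169.9 (50.4), on BT-474 HRG with 358.11 (74.1) and in LRSKBr3 with 66.86 (15.0). It enters the count because some YY1 transcripts start deep in the gene, the nearest of them 6396 bp to 6610 bp from the peak centres. A weak peak 33254 bp into the gene, score 56.12 (5.9), was called on BT-474 vehicle only. No list had a peak at the main start, and the SKBr3 vehicle, EGF, HRG and pSKBr3 lists had none in range. The sequence of the site called in BT-474 and LRSKBr3 is shown because it holds the only full ERRE near a peak centre among the 21 sites. Like the further stretches shown for TFB1M, TFB2M and POLRMT, it was chosen after the matches had been seen. The ERRE lay within 150 bp of the BT-474 vehicle and LRSKBr3 centres, but not of the stronger BT-474 HRG peak. Another full ERRE is covered by the peaks of the first intronic site, at least 723 bp from their centres. Capitals mark the ERRE:
YY1 intron, chr14:100735640-100735748, plus: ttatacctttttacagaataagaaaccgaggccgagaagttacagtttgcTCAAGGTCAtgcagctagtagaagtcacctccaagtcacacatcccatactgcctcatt

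TFAM (chr10:60145105-60158980, plus strand) encodes the factor that coats and bends mtDNA and acts in its transcription. Its promoter peak scored 1028.13 on SKBr3 vehicle (percentile 90.5), 371.02 on EGF (74.7) and 1165.04 on HRG (91.1), and 1290.49 in pSKBr3 (93.3) and 1567.7 in LRSKBr3 (93.9). In BT-474 it was called on vehicle only, with a score of 107.27 (34.2). The gene therefore carried a strong promoter peak in all 5 lists of SKBr3 origin and a weak one, or none, in BT-474. The peak was 1778 bp to 2283 bp wide and centred 16 bp to 177 bp from a start, with a width percentile of 45.4 in BT-474 and of 71.3 to 83.1 in the other lists. A distal peak 12032 bp upstream on SKBr3 vehicle, score 146.67 (52.3), was also called on EGF, score 60.64 (10.9), and in no other list. The promoter site held none of the words sought, over its whole length. The 100 bases before its start are shown as a bound promoter without an AAGGTCA core, and nothing is in capitals:
TFAM upstream, chr10:60145005-60145104, plus: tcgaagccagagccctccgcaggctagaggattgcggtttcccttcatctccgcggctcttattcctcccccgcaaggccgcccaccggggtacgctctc

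TFB1M and TFB2M encode mitochondrial transcription factors B1 and B2. TFB2M helps the mitochondrial RNA polymerase to melt promoters, whereas TFB1M acts as a methyltransferase on mitochondrial ribosomal RNA. TFB1M (chr6:155577268-155635627, minus strand) had a promoter peak in 4 lists, with a score of 164.56 on SKBr3 vehicle (percentile 56.4), 82.18 on EGF (25.8), 67.41 on HRG (16.8) and 64.75 in LRSKBr3 (13.5). It had none in pSKBr3 or BT-474, and the strongest of the 4 peaks was that of vehicle. An intergenic site about 13 kb upstream, in contrast, was called in all 8 lists. Its score was 835.93 on SKBr3 vehicle (88.3), 578.69 on EGF (82.7) and 86.8 on HRG (29.5), and 112.7 (36.2), 50.28 (0.6) and 98.42 (37.4) on vehicle, EGF and HRG in BT-474. It was 104.29 in pSKBr3 (39.6) and 515.78 in LRSKBr3 (80.6). The percentile thus stood above 80 on vehicle and EGF in SKBr3 and in LRSKBr3, and below 40 in the other 5 lists. A weaker site 15751 bp to 15822 bp upstream was called on EGF, score 69.86 (18.2), and on HRG, score 96.68 (34.3), and in no other list.

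The site 13 kb upstream of TFB1M is shown since it was shared by all 8 lists and holds the core at 2 positions on opposite strands. In both, the 9 bases on the strand of the core read TGAAGGTCA, which differs from the ERRE in its second base. Capitals mark the core, which on the printed strand reads TGACCTT at the later position:
TFB1M upstream, chr6:155648532-155648747, plus: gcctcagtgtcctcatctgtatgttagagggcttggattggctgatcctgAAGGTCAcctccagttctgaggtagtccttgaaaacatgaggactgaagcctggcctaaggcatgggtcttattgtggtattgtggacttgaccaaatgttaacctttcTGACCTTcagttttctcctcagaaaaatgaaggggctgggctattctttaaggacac
The ERRE with any second base (TNAAGGTCA, a word added after these matches were seen) occurred at 4 of the 14 distal sites, against 12.3% to 17.8% of all distal peaks, and at 0 of the 7 promoter sites, against 4.76% to 11.5% of all promoter peaks.

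TFB2M (chr1:246703863-246729563, minus strand) shares its start region with CNST, which runs in the opposite direction. The promoter peak scored 130.2 on SKBr3 vehicle (percentile 47.8), 55.04 on EGF (5.6) and 126.7 on HRG (45.1), and 226.92 in pSKBr3 (66.0) and 371.45 in LRSKBr3 (74.1). BT-474 had no promoter peak on any treatment. A site in an intron of CNST, 16165 bp to 17380 bp from the TFB2M start, was stronger in most lists. In SKBr3 it scored 1261.92 on vehicle (92.3), 654.88 on EGF (84.5) and 258.29 on HRG (66.7). In BT-474 it was not called on vehicle but scored 945.87 on EGF (91.7) and 1624.57 on HRG (93.7). It scored 211.78 in pSKBr3 (63.9) and 428.36 in LRSKBr3 (77.1). Between vehicle and HRG the percentile thus lay in opposite order in the 2 lines. The BT-474 peaks were also broad, 3427 bp on EGF (width rank 2055 of 26832) and 6170 bp on HRG (rank 557 of 41271), against 1073 bp to 2140 bp in the other 5 lists.

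The promoter sites of TFB1M and TFB2M held the NRF1 word within 150 bp of a peak centre, 2 of the 7 promoter sites, against 0.537% to 2.69% of all promoter peaks. This held for 1 of 4 TFB1M peaks, the weak one of LRSKBr3. It held for 3 of 5 TFB2M peaks, those of SKBr3 vehicle, SKBr3 EGF and LRSKBr3. Promoter peaks of GABPA and POLRMT also covered the word, but farther than 150 bp from any centre. At TFB1M the word is read on both strands of the same stretch, 2 bases apart. Both are shown because the encoded NRF1 is itself one of the regulators, and capitals mark the word:
TFB1M promoter, chr6:155635691-155635800, plus: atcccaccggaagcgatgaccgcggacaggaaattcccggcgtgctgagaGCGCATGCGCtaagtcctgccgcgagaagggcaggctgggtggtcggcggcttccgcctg
TFB2M promoter, chr1:246729560-246729589, plus: cactagagcctGCGCATGCgaacagcggag

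POLRMT (chr19:617221-633537, minus strand), the mitochondrial RNA polymerase, had peaks in 3 of the 8 lists. Its promoter peak scored 181.75 on HRG in SKBr3 (percentile 57.2), 103.55 in pSKBr3 (39.3) and 196.52 in LRSKBr3 (57.5), with widths of 1040 bp to 1296 bp (width percentiles of at most 36.1). A weak intronic peak centred 5224 bp to 5253 bp into the gene was called on HRG in SKBr3, score 55.36 (6.0), and in LRSKBr3, score 59.52 (9.1). Vehicle and EGF in SKBr3, and all 3 treatments in BT-474, gave no peak within 20 kb. All 3 promoter peaks were centred within 150 bp of 2 copies of the core on the same strand, shown in capitals as the only promoter site of the 7 where the core lay near every peak centre:
POLRMT start, left, chr19:633225-633253, plus: accacgagtcaAAGGTCAgactgcacgga
POLRMT start, right, chr19:633327-633355, plus: gcaaagaggcaAAGGTCAaagcgccaaag

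Of the replication genes, POLG (chr15:89848429-89878092, minus strand), the catalytic subunit of the mtDNA polymerase, had 1 promoter site in all 8 lists and no other peak in range. In SKBr3 it scored 703.23 on vehicle (percentile 86.3), 518.4 on EGF (80.9) and 799.74 on HRG (87.4). In BT-474 the score was 246.75 on vehicle (61.3), 139.27 on EGF (55.2) and 457.54 on HRG (78.7). pSKBr3 gave 570.8 (84.6) and LRSKBr3 1588.03 (94.0), the highest percentile of the 8. As at GABPA, the percentiles of the 3 BT-474 lists were the lowest. The width ranged from 1619 bp (rank 30606 of 41271, BT-474 on HRG) to 2417 bp (rank 5728 of 39777, LRSKBr3). POLGARF, an overlapping reading frame of the same transcript, shares the start. The core lies 650 bp into the gene, within 150 bp of the peak centre in the 3 BT-474 lists only. It is shown for its presence in a gene bound in every list, with the core in capitals:
POLG, chr15:89877428-89877456, minus: gagctttgcccAAGGTCAcacagctcgag

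TWNK (chr10:102747124-102754160, plus strand), the Twinkle helicase that unwinds mtDNA ahead of the polymerase, shares its start region with MRPL43, a gene of the mitochondrial ribosome. A promoter peak was called on HRG in SKBr3, score 109.0 (percentile 39.4), and in LRSKBr3, score 221.62 (61.2), and in no other list. Its width was 1073 bp (rank 29486 of 37195) on HRG and 1611 bp (rank 15865 of 39777) in LRSKBr3. TWNK was in range in all 8 lists through a distal site in an intron of LZTS2, 18872 bp to 19036 bp downstream of its start. This site stood at percentile 70.9, 70.4 and 70.1 on vehicle, EGF and HRG in SKBr3, at 49.6 in pSKBr3 and at 81.0 in LRSKBr3. In BT-474 its score was 75.23 on vehicle (percentile 19.4), 81.36 on EGF (below percentile 40) and 62.14 on HRG (15.3). It was the site with the closest percentiles across the SKBr3 treatments, and all of its BT-474 values lay below all of its SKBr3 ones.

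TWNK had 3 further distal sites. A site 15751 bp to 15954 bp downstream was called in every list but SKBr3 on HRG, at percentiles of 17.7 to 59.0. In BT-474 this site scored 80.69 on vehicle (22.5), 92.83 on EGF and 139.48 on HRG (49.4), each above the site near 19 kb, whereas in the SKBr3, pSKBr3 and LRSKBr3 lists that called both, it scored below it. A site about 16 kb upstream, in introns of SEMA4G and MRPL43, was called on HRG in SKBr3 (11.9) and BT-474 (14.7), in pSKBr3 (32.7) and in LRSKBr3 (71.9). A peak 11418 bp downstream, at the start of LZTS2, was called on HRG in SKBr3 only (45.5). These sites lie in or near other genes, and the lists do not show which gene they serve.

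**Figure D2:**
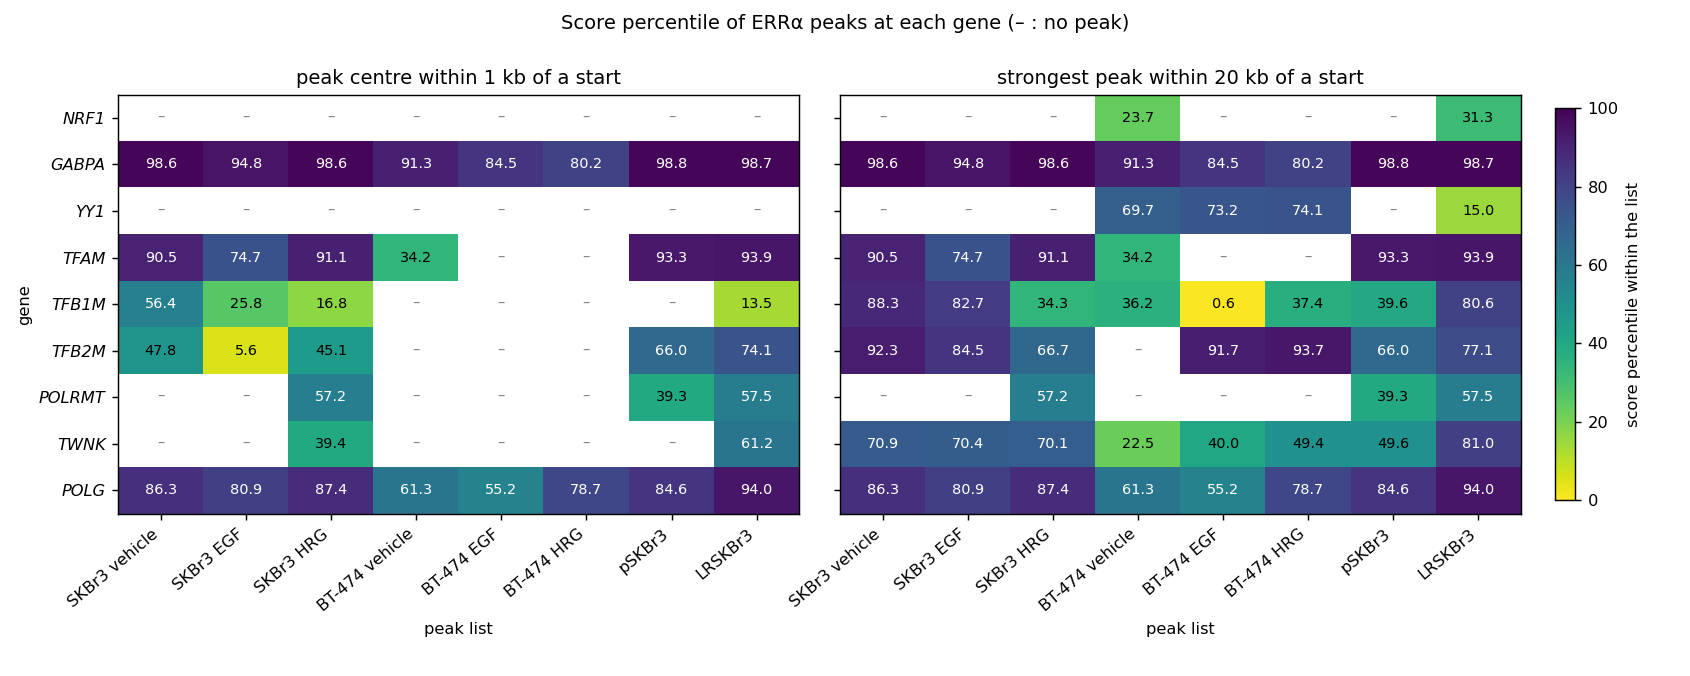
Score percentile of the ERRα peak at each gene in each list. The left panel gives the promoter peak (centre within 1 kb of a start), the right panel the strongest peak within 20 kb; rows are genes, columns are peak lists, the colour and the number are the percentile of the score within the list, and a dash means no peak. The GABPA row runs from 80.2 to 98.8, and the NRF1 and YY1 rows are empty on the left.

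Width and score went together at some of the genes and not at others. The GABPA peaks of SKBr3 vehicle, SKBr3 HRG and LRSKBr3, with width percentiles of 93.1 to 95.8, had score percentiles of at least 98.6. The NRF1 peak of LRSKBr3, at a width percentile of 99.6, had a score percentile of 31.3, and the TFB1M promoter peak of LRSKBr3 likewise combined 70.3 in width with 13.5 in score. In the other direction, the TWNK site near 19 kb on EGF in SKBr3 stood at 1.3 in width and 70.4 in score, and the POLG peak of BT-474 on HRG at 25.8 and 78.7.

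**Figure D3:**
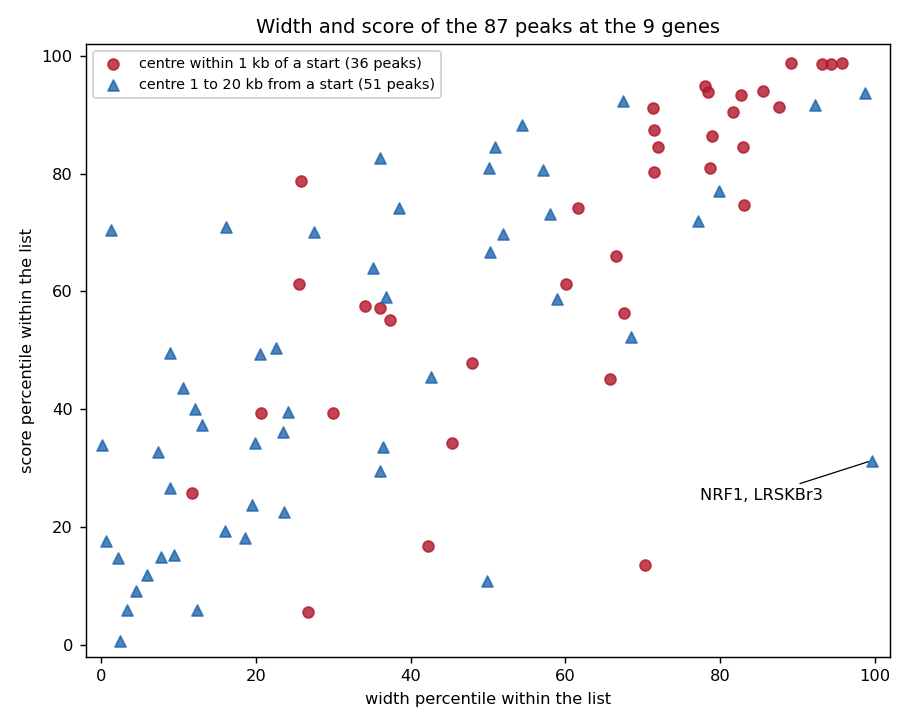
Width against score of the 87 peaks, both as percentiles within the list (x axis, width; y axis, score). Red circles are promoter peaks and blue triangles distal ones; the labelled NRF1 peak of LRSKBr3 lies at 99.6 on the x axis and 31.3 on the y axis, and the promoter peaks have a median of 70.8 in width and 76.7 in score.

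The genes in range were next counted per list, beside the share of all protein-coding genes in range. On vehicle in SKBr3, 6 of the 9 genes had a peak within 20 kb (66.7%, 95% Wilson interval 35.4% to 87.9%), against 54.7% of all genes, and 5 had a promoter peak (55.6%, interval 26.7% to 81.1%), against 23.6%. On EGF the counts were 6 and 5, against 56.8% and 22.6%, and the promoter count was 3 with P at most 1e-10 or with lists of equal size. On HRG 7 genes had a peak within 20 kb, against 67.0%, and all of these 7 had a promoter peak (77.8%, interval 45.3% to 93.7%), against 36.2%. POLRMT and TWNK made the difference between HRG and vehicle at promoters, in a list that also held more promoter peaks over all genes. With every list cut to its 22539 highest scores, the promoter count was 5 on both HRG and vehicle, and with P at most 1e-10 it was 6 and 5.

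In BT-474 the genes within 20 kb numbered 7 on vehicle (53.5% of all genes), 6 on EGF (42.7%) and 6 on HRG (55.8%). Within 10 kb they numbered 4, 3 and 3. Promoter peaks were fewer, 3 genes on vehicle (33.3%, interval 12.1% to 64.6%, against 19.7%), and 2 genes each on EGF and HRG (22.2%, interval 6.32% to 54.7%, against 11.5% and 17.0%). These were GABPA and POLG in every list, with TFAM on vehicle. In pSKBr3 7 genes had a peak within 20 kb (77.8%, against 57.7% of all genes) and 5 had a promoter peak (55.6%, against 31.8%). LRSKBr3 had all 9 in range (interval 70.1% to 100.0%), against 70.6% of all genes, and 7 at promoters, against 42.3%. With distance taken from the peak edge, 8 genes were in range in pSKBr3 and 8 had a promoter peak in LRSKBr3. With lists of equal size, and also with P at most 1e-10, 7 genes were in range in LRSKBr3, as in pSKBr3; the LRSKBr3 peaks of NRF1 (percentile 31.3) and YY1 (15.0) are weak. In the full LRSKBr3 list, 4 of the 7 promoter peaks (GABPA, TFB2M, TWNK and POLG) also had the start of another annotated protein-coding gene within 1 kb of their centre, a feature of 15.1% of all promoter peaks in that list. POLG is counted through POLGARF only, a reading frame of its own transcript. The intervals, which cover counting error only, are wide with 9 genes. At promoters the members' share lay above that of all genes in each list. Some of these calls are weak peaks, among them TFB1M on EGF (percentile 25.8), on HRG (16.8) and in LRSKBr3 (13.5), and TFB2M on EGF (5.6).

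**Figure D4:**
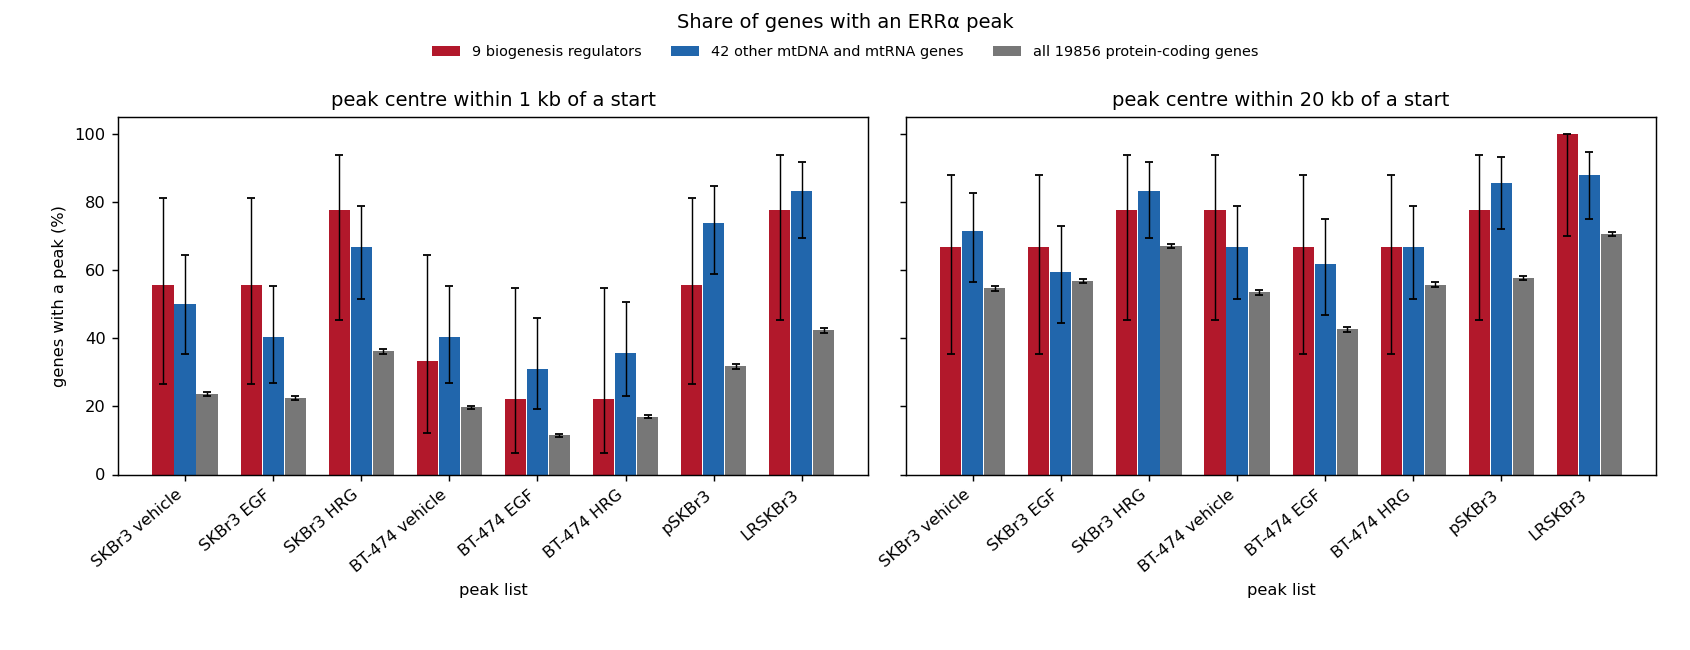
Share of genes with an ERRα peak in each list (y axis, percent), for promoter peaks on the left and peaks within 20 kb on the right. Red bars are the 9 regulators, blue bars the 42 other genes of mtDNA and mitochondrial RNA, grey bars all 19856 protein-coding genes, and lines are 95% Wilson intervals of counting error. At promoters the red and blue bars stand above the grey bar in all 8 lists.

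Within 20 kb, 4 of the 9 genes (GABPA, TFB1M, TWNK and POLG) were called in all 8 lists, against 27.1% of all genes, and within 1 kb 2 of the 9 (GABPA and POLG), against 6.64%. The strongest peak of a gene within 20 kb had a median score percentile over the genes in range of 89.4, 81.8 and 70.1 on vehicle, EGF and HRG in SKBr3. The same medians over all genes in range were 71.6, 68.1 and 72.6. In BT-474 the medians of the regulators were 36.2, 64.2 and 76.4, against 65.7, 65.7 and 67.7, and they were 66.0 in pSKBr3 and 80.6 in LRSKBr3, against 70.6 and 75.0. The regulators' strongest peaks thus ranked above the typical gene in some lists and below it in others.

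The treatments were compared by classing each site by the lists that called it. In SKBr3 the 16 sites of the 9 genes comprised 8 common to the 3 lists (32.4% of all sites within 20 kb of a protein-coding start were common), 6 called on at least 1 growth factor and absent on vehicle (46.8%), 2 called on vehicle and 1 growth factor (11.2%), and 0 on vehicle alone (9.65%). With P at most 1e-10 these counts were 5 common, 3 without a vehicle peak and 2 on vehicle alone, and with lists of equal size 5, 2 and 2. Of the 6 sites in the full lists without a vehicle peak, 5 were called on HRG and not on EGF (both POLRMT sites and 3 TWNK sites), and the sixth, upstream of TFB1M, on both. Among all sites near genes without a vehicle peak, 64.2% were called on HRG and not on EGF, and the HRG list is the longer one (37195 peaks against 32567). At promoters 5 of 7 sites were common (39.2% of all promoter sites) and 2, of POLRMT and TWNK, lacked a vehicle peak (44.6%). The promoters of TFAM, TFB1M, TFB2M, GABPA and POLG were thus called with and without growth factor in the full lists. With P at most 1e-10 or with lists of equal size, TFB1M lost its EGF and HRG peaks and kept that of vehicle, and TFB2M lost its EGF peak.

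In BT-474 there were 12 sites, of which 6 were common (40.1% of all sites), 2 were called on growth factor only (31.1%), 1 on vehicle and HRG (16.8% on vehicle and 1 growth factor), and 3 on vehicle only (12.0%). With P at most 1e-10, and with lists of equal size, 3 were common. The 2 sites called on growth factor only were the intronic site of CNST near TFB2M and the site upstream of TWNK, both beyond 10 kb of a start of these genes. At promoters, 2 of 3 sites were common (44.2%), 0 were called on growth factor only (16.9%), and TFAM was called on vehicle alone (18.9%). Of the 7 genes with a promoter peak in an SKBr3 list on vehicle, EGF or HRG, 4 had none in BT-474 (57.1%), and for all genes the same share was 52.8%. The absence of TFB1M, TFB2M, POLRMT and TWNK promoter peaks from BT-474 was therefore near the share found for genes at large.

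Between pSKBr3 and LRSKBr3, the 15 sites divided into 10 common (49.0% of all sites), 5 in LRSKBr3 only (46.2%) and 0 in pSKBr3 only (4.8%), or 2 where 50% overlap of both peaks, or centres within 500 bp, was required. The 5 were the NRF1 peak at the start, the YY1 intron, the TFB1M promoter, the TWNK promoter and the POLRMT intron. At promoters 5 of 7 were common (62.2%) and 2 were in LRSKBr3 only (33.9%). The LRSKBr3 list holds 39777 peaks and the pSKBr3 list 22539, and the part of this difference in the 5 sites was not tested beyond 2 alternatives: of the 5, the TWNK promoter was the only one left in LRSKBr3 both with lists of equal size and with P at most 1e-10. At the latter setting the site upstream of TWNK, common in the full lists, was also in LRSKBr3 only.

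The other genes of mtDNA upkeep and mitochondrial RNA were taken as a list of 42, made of 3 PGC-1 coactivators, 17 genes of mtDNA replication and nucleotide supply, 8 of mitochondrial transcription and 14 of RNA processing. Of these, 30, 25 and 35 (71.4%, 59.5% and 83.3%) had a peak within 20 kb on vehicle, EGF and HRG in SKBr3, 28, 26 and 28 in BT-474 (66.7%, 61.9% and 66.7%), 36 in pSKBr3 (85.7%) and 37 in LRSKBr3 (88.1%). The shares of all genes were 54.7%, 56.8% and 67.0%, then 53.5%, 42.7% and 55.8%, then 57.7% and 70.6%. Promoter peaks were found for 21, 17 and 28 in SKBr3 (50%, 40.5% and 66.7%), 17, 13 and 15 in BT-474 (40.5%, 31% and 35.7%), 31 in pSKBr3 (73.8%) and 35 in LRSKBr3 (83.3%). The promoter shares of all genes were 23.6%, 22.6% and 36.2%, then 19.7%, 11.5% and 17.0%, then 31.8% and 42.3%. Over all 8 lists, 18 of the 42 (42.9%) were in range throughout, beside 4 of 9 (44.4%) of the regulators and 27.1% of all genes. By group these were 9 of 14 RNA-processing genes (64.3%), 4 of 8 transcription genes, 1 of 3 coactivators (33.3%) and 4 of 17 replication genes (23.5%), the last near the share of all genes.

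MTERF3, a factor of the mitochondrial transcription termination family, was the only gene of the 42 with no peak in range in any list, against 14.6% of all genes. The genes called in exactly 1 of pSKBr3 and LRSKBr3 were LIG3, the DNA ligase of mitochondria, and PRIMPOL, a primase-polymerase, in LRSKBr3, and SLC25A4, the ADP/ATP carrier, in pSKBr3. These 3 of 42 stand beside 16.6% of all genes that were in range in exactly 1 of the 2 lists, which differ in length (22539 and 39777 peaks).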

How the data were processed

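The authors aligned the ChIP-seq reads to hg19 with BWA 0.5.9 and SAMtools 0.1.18 (versions from the submitters' processing notes) and called MACS peaks over input with P up to 1e-05. The deposited files used here are 1 peak list per condition, with replicates pooled except in BT-474 (1 ChIP library each), with the authors' score per peak (−10 log10 of its P value); 3 of the lists open with comment lines naming FindPeaks although their peaks carry MACS names. Tag counts were not used here, so depth is unknown.

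Starts were those of 19856 protein-coding genes of a GENCODE annotation lifted to GRCh37. The 20 kb and 1 kb ranges were measured from the peak centre to the nearest annotated start. Distances given as upstream, downstream or into a gene run from its 5′ end. Sites are peaks that overlap by at least 1 bp. The 9 genes, the 42 other genes and the DNA words were chosen with earlier results of these data known. All 9 were named, and of the 42 only those in range in no list or in exactly 1 of pSKBr3 and LRSKBr3. Other genes were named where they share a promoter peak, and LZTS2 and SEMA4G, which hold distal sites, after these had been seen. Sequence was read from GRCh37 for bound promoters with the core word and for contrasts. Distance, merging and word searches were tested on simulated data. Alternatives concerned the P threshold, list size, distance, overlap and word. Intervals came from scipy 1.17.1, sequences from samtools 1.23.1 with pysam 0.24.0, tables from pandas 2.3.3 with numpy 2.4.6 in Python 3.11.15, and plots from matplotlib 3.10.9.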

Additional observations from a re-analysis of the deposited data

Results flagged for a closer look

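At 2 distal sites the score percentile lay in opposite order between vehicle and HRG in SKBr3 and BT-474, by at least 10 points in each line, with a site that was not called taken as 0. At the intronic site of CNST, about 17 kb from the TFB2M start, the percentile was 92.3 on vehicle and 66.7 on HRG in SKBr3, whereas in BT-474 it was not called on vehicle and stood at 93.7 on HRG. The change in BT-474 minus that in SKBr3 came to 119.3 percentile points, of which 93.7 rest on the value of 0 set for the vehicle list, where the site was only below the cutoff. At the site 15751 bp to 15954 bp downstream of TWNK, the percentile was 17.7 on vehicle in SKBr3 and the site was not called on HRG, while in BT-474 it was 22.5 on vehicle and 49.4 on HRG, a difference between the changes of 44.6 points. The SKBr3 vehicle peak there scored 67.18, near the cutoff of 50, and the HRG value of 0 is again one set for a site below the cutoff. The percentiles come from lists of different length. These differences were not tested, since each condition has 1 list.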

How the results depend on the processing

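Of 136 values recomputed under an alternative, 114 stayed within 1.5 times the main count and 22 did not. With P at most 1e-10, and also in lists of equal size (22539 peaks each), the genes with a promoter peak on EGF in SKBr3 numbered 3 instead of 5, the common sites 5 instead of 8 in SKBr3 and 3 instead of 6 in BT-474, and the SKBr3 sites on vehicle alone 2 instead of 0. SKBr3 sites without a vehicle peak numbered 3 and 2 under these settings instead of 6, and sites in LRSKBr3 only 2 and 1 instead of 5; both settings drop weak peaks. Within 10 kb, by construction, sites were lost. The genes in range in BT-474 were 4, 3 and 3 on vehicle, EGF and HRG instead of 7, 6 and 6, the common sites were 5 in SKBr3, 3 in BT-474 and 5 between pSKBr3 and LRSKBr3 (main 10), and BT-474 sites on growth factor only were 0 instead of 2. Sites in pSKBr3 only numbered 2 instead of 0 when 50% overlap of both peaks, or centres within 500 bp, was required; the cause was not tested. The 7-base core in place of the ERRE gave 3 genes with the word at a promoter instead of 0, and any second base (chosen after seeing the data) gave 0. No paired analysis was possible because the peak lists analysed here each pool the replicate libraries, or rest on 1 library. With depth unknown, a gene without a peak is one below the cutoff, and absence of binding is not shown.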
